A study of Mus musculus with 30 samples.

Results

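The solute carrier (Slc) transporters of mouse mammary epithelium were taken from the table of normalised read counts as every symbol of the form Slc, family number, letter and member number, leaving out the mitochondrial Slc25 carriers. The rule kept 141 of 11137 genes, which fall into 44 families. Libraries came from sorted luminal and basal mammary epithelial cells of virgin and parous mice. Control mice (K8imTmG) carried K8rtTA, TetO-Cre and the mTmG reporter, and K8iΔRank mice carried the same alleles together with Rank fl/fl. All mice of both genotypes drank doxycycline at 1 mg/ml between 3 and 8 weeks of age, per the labels. Virgin and parous females were age matched, and parous females had gone through pregnancy and a period of involution. Per the study's methods, control dams nursed until the pups were removed, whereas K8iΔRank dams failed to lactate after the first pregnancy, so that genotype and lactation history cannot be told apart in any parous comparison of genotypes or in any genotype by stage test. The 8 groups were luminal virgin K8imTmG (3 libraries), luminal virgin K8iΔRank (3), luminal parous K8imTmG (5), luminal parous K8iΔRank (4), basal virgin K8imTmG (3) and 4 libraries each of basal virgin K8iΔRank, basal parous K8imTmG and basal parous K8iΔRank. The K8 (Krt8) promoter restricts rtTA, and with it Cre, to luminal cells, so basal cells of K8iΔRank mice were not the target of the deletion.

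Solute carriers move ions, sugars, amino acids, metals, vitamins and nucleotide sugars across the plasma membrane and organelle membranes, and members of a numbered family usually share a transport mechanism. In the mammary gland the luminal cells make milk and draw its precursors from the blood side, while the basal (myoepithelial) cells contract. Slc12a2 encodes NKCC1, the sodium-potassium-chloride cotransporter that loads epithelial cells with chloride and is controlled by the WNK and SPAK (Stk39) kinases.

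The 30 libraries came from 17 mice, 13 of which gave both lineages, and each library of a group came from a separate mouse. Recovered reads per library ranged from 340445 to 3130419. Basal virgin libraries held 340445 to 1172427 in K8imTmG and 1200781 to 2104379 in K8iΔRank mice. Basal parous libraries held, in the same order, 450064 to 1365008 and 1844364 to 2996649. Luminal virgin libraries held 1862812 to 2422876 and 814455 to 1158036, and luminal parous libraries 534445 to 2988541 and 2214318 to 3130419. Depth and genotype cannot be told apart in basal or virgin luminal cells, nor depth and stage in K8iΔRank luminal cells. The summed luminal markers (Krt8, Krt18, Krt19, Epcam, Cldn3, Cldn4) were 3589 to 10260 in luminal and 526 to 1461 in basal libraries, and the summed basal markers (Krt5, Krt14, Acta2, Myh11, Oxtr, Trp63) were 36.4 to 208 and 6685 to 11134, so the labels matched these markers. Fibroblast markers summed to 98.4 to 957 in luminal and 550 to 1003 in basal libraries, and endothelial markers to 3.36 to 35.9 and 33.5 to 624. Tnfrsf11a (Rank) was 9.57 to 18.6 in luminal virgin K8imTmG, 11.5 to 23.8 in luminal virgin K8iΔRank, 12.8 to 64.9 in luminal parous K8imTmG, 27.0 to 41.1 in luminal parous K8iΔRank and 33.1 to 81.1 in basal libraries. The 3′ reads therefore did not show the deletion. Clec2d split the libraries without intermediates into 14 at 65.6 to 199 and 16 at 0.641 to 8.68. All high-Clec2d libraries in the virgin lineages were of a single genotype (luminal K8iΔRank, basal K8imTmG), so that this split and the genotype cannot be told apart there, and the same holds for stage in K8iΔRank luminal cells.

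Slc transcripts made up 0.437% to 1.37% of the normalised counts of a library. The share was 1.19% to 1.37% in luminal virgin K8imTmG, 0.773% to 1.12% in luminal virgin K8iΔRank, 0.578% to 0.799% in luminal parous K8imTmG, 0.790% to 1.11% in luminal parous K8iΔRank and 0.437% to 0.659% in basal libraries. Slc12a2 alone took 35% to 49.5% of the Slc counts in luminal virgin K8imTmG, 4.07% to 18.9% in luminal parous K8imTmG and 0.356% to 6.07% in basal libraries. Without it the Slc share was 0.540% to 0.773% in luminal and 0.435% to 0.637% in basal libraries. The median member had a mean of 33.2 normalised counts, and the range ran from 7.98 to 1789 for Slc12a2. The next highest means were those of Slc38a2 (711), a neutral amino acid transporter, Slc3a2 (471), the heavy chain of several amino acid exchangers, Slc7a2 (468), a cationic amino acid transporter, Slc39a1 (459), a zinc importer, and Slc6a6 (387), the taurine transporter. Each transcript gives about a single 3′ tag, so that these levels do not depend on transcript length. Altogether 66 members were above 3 reads in every library and 37 were at 0 in at least 1.

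Slc12a2 was the most abundant member and was higher in luminal cells, with 3380 ± 2659 normalised counts (SD, n = 15) against 199 ± 148 in basal cells (SD, n = 15). Its log2 difference was 4.19 (SE 0.29, adjusted p = 3.23e-13, limma), on the scale of log2(normalised count + 1) that is used for all differences here. In bulk samples, fewer cells of a type and less RNA per cell cannot be told apart. The lineages overlapped, since 289 was the lowest luminal value, 2865 the luminal median, 168 the basal median and 525 the highest basal value.

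Among luminal libraries, Slc12a2 was highest in virgin K8imTmG mice, with 5706, 6278 and 9303 normalised counts. Virgin K8iΔRank libraries held 2896, 2865 and 7011. Parous K8imTmG libraries held 2154, 434, 289, 1409 and 1505, and parous K8iΔRank libraries 1236, 4666, 3297 and 1648. Every parous control library was below every virgin library of either genotype. By the means the order was virgin K8imTmG (7096), virgin K8iΔRank (4257), parous K8iΔRank (2712) and parous K8imTmG (1158), and neighbours in this order overlapped.

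In control luminal cells the mean of Slc12a2 was 7096 ± 1933 for virgin mice (SD, n = 3) and 1158 ± 783 after parity (SD, n = 5), a log2 difference of -2.95 (SE 0.63, adjusted p = 0.0447, limma). Among the low-Clec2d libraries alone it was -3.59 (adjusted p = 0.0147). The adjusted p was 0.064 without the filter on low values and ranged from 0.020 to 0.20 when a library was left out, and the call was kept only without the library of mouse 494. In K8iΔRank luminal cells the parity difference was -0.71 (adjusted p = 0.302), and the difference between the genotypes' parity differences was 2.24 (SE 0.87, adjusted p = 0.0921), which missed the threshold but passed it after quantile normalisation (3.19, adjusted p = 0.0255). The genotype difference was -0.84 in virgin (adjusted p = 0.238) and 1.40 in parous luminal cells (adjusted p = 0.242).

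In basal cells Slc12a2 was far lower and its lowest values were those of parous control mice, with 33.5, 50.8, 27.9 and 72.8 normalised counts. Parous K8iΔRank libraries held 181, 183, 264 and 166, virgin K8imTmG libraries 315, 405 and 103, and virgin K8iΔRank libraries 525, 168, 123 and 363. The parous groups did not overlap, whereas the virgin groups did. Between the parous groups 12.0% of all genes did not overlap.

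Slc12a2 was the only member called between parous K8iΔRank and K8imTmG basal cells, of 127 tested, where 0.906% of all genes were called. Its means were 198 ± 44.5 and 46.2 ± 20.2 (SD, n = 4 each), a log2 difference of 2.15 (SE 0.29, adjusted p = 0.0160, limma). Over libraries left out the difference ranged from 1.95 to 2.40 and its adjusted p from 0.0084 to 0.11, and the call was kept only without mouse 558 or mouse 794. Within the high-Clec2d libraries the difference was 1.98 (adjusted p = 0.251). The summed luminal markers moved with it, at 526 to 734 in parous K8imTmG and 835 to 979 in parous K8iΔRank basal libraries, as did the hormone-sensing markers, at 60.7 to 160 and 113 to 290, and their part in the result was not tested. The parity difference of Slc12a2 in control basal cells was -2.43 (adjusted p = 0.174, limma; 1.08e-05 by DESeq2 and 0.0349 by edgeR on the recovered reads), and it was -3.02 (adjusted p = 0.0269) without mouse 568.

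**Figure D1:**
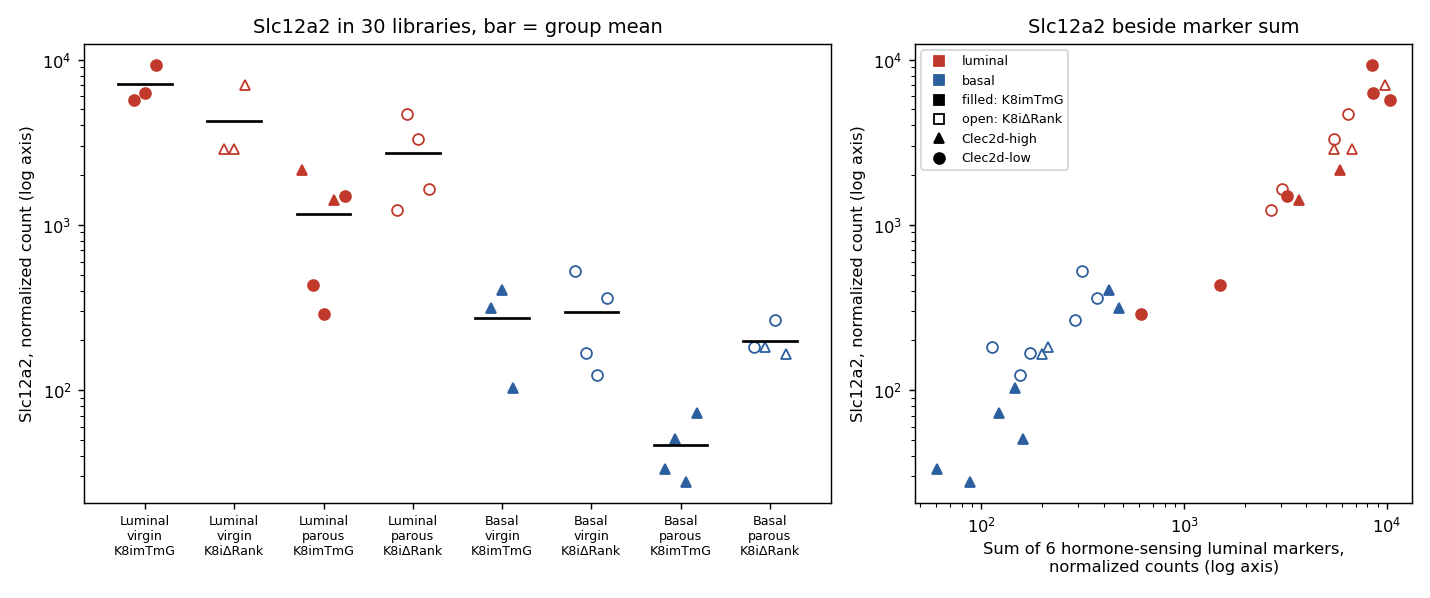
Left, normalised counts of Slc12a2 on a log axis in the 8 groups of lineage, stage and genotype, with a point for each library and a bar at the group mean. Right, the same libraries against the sum of 6 hormone-sensing luminal markers (both log axes), where low marker sums go with low Slc12a2 and parous control groups have the lowest mean of each lineage, 1158 in luminal and 46.2 in basal cells.

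The level of Slc12a2 followed the summed hormone-sensing markers (Esr1, Pgr, Prlr, Foxa1, Areg, Tnfsf11) across libraries. On the log2 scale Pearson's r over the 15 luminal libraries was 0.959 and Spearman's rho 0.921 (permutation test, p = 1e-05 for each, the smallest that 100000 permutations give, adjusted p = 3e-05 and 6e-05 over 6 relations). Without the 2 libraries farthest from the median r was 0.923, after centring within groups it was 0.931, and among the 10 low-Clec2d libraries it was 0.974, while the 5 high-Clec2d libraries were too few for a value. These marker sums were 8462 to 10333 in luminal virgin K8imTmG, 5507 to 9784 in luminal virgin K8iΔRank, 609 to 5890 in luminal parous K8imTmG and 2669 to 6421 in luminal parous K8iΔRank libraries. In luminal libraries Prlr was the largest part of the sum. It was 7604 of 10333 normalised counts in virgin control mouse 531 and 464 of 609 in parous control mouse 534. Relations with the single markers were not tested. The ratio of Slc12a2 to Prlr, the prolactin receptor, was 0.520 to 1.35 in luminal libraries, and 0.520 to 0.646 in the 5 parous control libraries.

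Against the alveolar markers (4 of 5 in the table) Slc12a2 gave r = -0.832 and rho = -0.889 in luminal libraries (permutation test, adjusted p = 0.000315 and 8e-05), r = -0.839 without the 2 farthest libraries, -0.897 among low-Clec2d libraries and -0.567 within groups. Against the luminal progenitor markers r was -0.647 and rho -0.714 (permutation test, adjusted p = 0.0118 and 0.00461), but r was -0.484 without the 2 farthest libraries and -0.250 within groups. In basal libraries r was 0.832 with the luminal markers and 0.877 with the hormone-sensing markers, with rho of 0.882 and 0.864 (permutation test, adjusted p of 0.00026 and 3e-05 for r, 0.000105 and 8e-05 for rho). Without the 2 farthest libraries these r were 0.868 and 0.853, within groups 0.837 and 0.818, among 6 low-Clec2d libraries 0.886 and 0.811 and among 9 high-Clec2d libraries 0.849 and 0.935. The alveolar markers gave r = -0.413 and rho = -0.382 there (permutation test, adjusted p = 0.126 and 0.159). All these sums share library, depth and cell composition with Slc12a2.

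Luminal and basal cells differed in most Slc transporters. Of 141 members tested over the 8 groups, 97 were called at an adjusted p below 0.05 (limma), 57 of them with more counts in luminal cells and 40 with more in basal cells. Over all genes 55.7% were called, 28.7% higher and 27% lower in luminal cells. These shares are the background for the counts of each substrate group below. The median log2 difference was 0.16 over the members and 0.04 over all genes tested. For 12 members every luminal library was above every basal library, where 3.42% of all genes did the same, and for 11 members every basal library was above every luminal library, where 6.14% did.

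**Figure D2:**
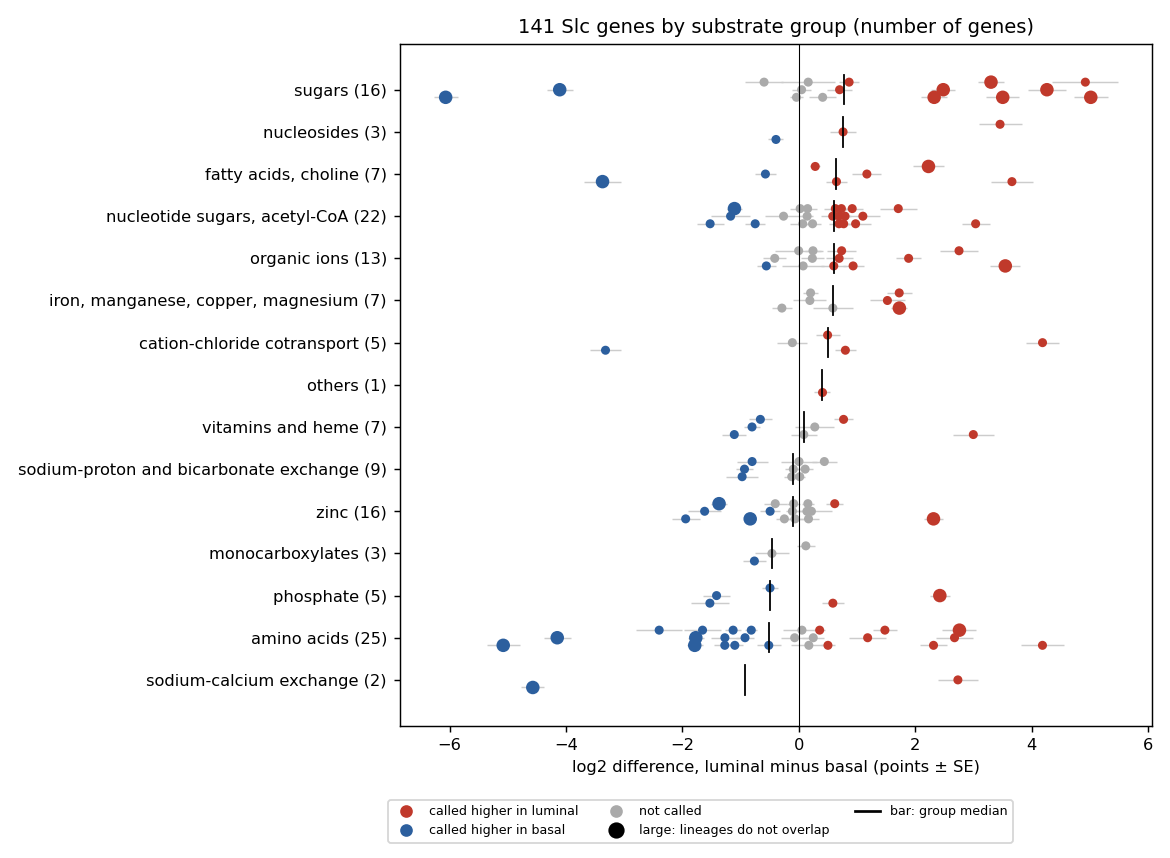
Log2 differences between luminal and basal cells (x axis, luminal minus basal) for the 141 Slc members in 15 substrate groups, with the SE as a line, the group median as a bar, colour for the call and large points for lineages without overlap. The values run from -6.07 for Slc2a4 to 5.02 for Slc5a7, and 97 members were called.

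Sodium-coupled transporters of the Slc5 family gave the 3 largest luminal-high differences, with 6 of 7 members higher in luminal cells and 5 of them without overlap. Slc5a7, the choline transporter (GRCm39 chr17:54580020-54606076, minus strand), ranged from 83.2 through a median of 192 to 353 normalised counts in luminal and from 0 through 5.58 to 21.6 in basal libraries, with a log2 difference of 5.02 (SE 0.29, adjusted p = 6.79e-15, limma). Slc5a1, the sodium-glucose cotransporter SGLT1 (chr5:33261563-33320214, plus strand), ranged from 6.62 through 53.2 to 128 in luminal and from 0 through 1.15 to 6.28 in basal libraries (log2 difference 4.26, SE 0.33). These genes had no basal library as high as their lowest luminal library.

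Slc5a5, the iodide transporter (chr8:71335533-71345402, minus strand), had the widest spread of the family in luminal cells, from 7.06 through 146 to 1191 normalised counts, and overlapped with basal libraries at 0 through 4.14 to 33.5 (log2 difference 4.92, SE 0.56). Its luminal libraries held 640, 465 and 1191 in virgin K8imTmG, 98.4, 146 and 343 in virgin K8iΔRank, 343, 8.00, 7.06, 144 and 131 in parous K8imTmG, and 23.6, 641, 268 and 41.2 in parous K8iΔRank mice. The virgin groups did not overlap, and the log2 difference of -2.05 between them had an adjusted p of 0.064 (limma), which missed the threshold. Between these virgin groups 28.3% of all genes did not overlap. The parous control libraries of mice 532 and 534, lowest in Slc5a5, were also lowest among luminal libraries in Slc12a2.

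Slc5a9, a sodium-dependent sugar transporter, had a log2 difference of 3.50 (SE 0.28), Slc5a8, a monocarboxylate transporter, of 2.48 (SE 0.21) and Slc5a6, the multivitamin transporter, of 2.33 (SE 0.23), all without overlap. Slc5a3, the sodium-myo-inositol cotransporter, was not called, at 104 in luminal and 93.9 in basal cells (log2 difference 0.05).

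**Figure D3:**
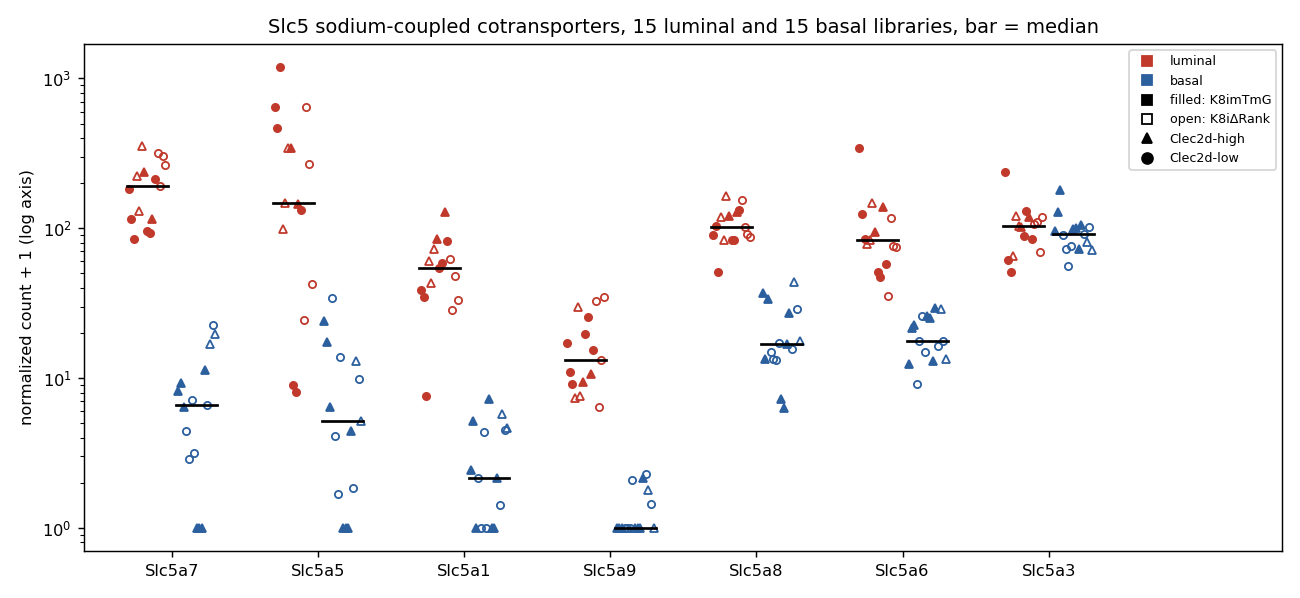
Normalised counts + 1 of the 7 Slc5 members on a log axis, with a point for each of 15 luminal and 15 basal libraries and a bar at the median. Luminal libraries lie above basal libraries without overlap for 5 members, overlap with them for Slc5a5, and mix with them for Slc5a3.

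Among members of the Slc2 family the main differences were towards basal cells. Slc2a4, the insulin-responsive glucose transporter GLUT4 (chr11:69831006-69839070, minus strand), ranged from 96.4 through 154 to 199 normalised counts in basal and from 0 through 1.32 to 3.79 in luminal libraries, the largest lineage difference of any member (log2 difference -6.07, SE 0.20, adjusted p = 2.29e-20, limma). Slc2a13, a proton-myo-inositol cotransporter, averaged 19.6 in basal and 0.139 in luminal cells (log2 difference -4.11, SE 0.22) and was at 0 in 12 of 15 luminal libraries. Slc2a1, the widely expressed GLUT1, did not pass the test, at 109 in luminal and 115 in basal cells (log2 difference -0.04, SE 0.11). Slc45a3 (prostein) was higher in luminal cells without overlap, at 78.0 to 298 against 4.19 to 40.2 (log2 difference 3.30, SE 0.22). The group of Slc2, Slc5, Slc45 and Slc50, which carries choline, iodide and vitamins besides sugars, had 9 of 16 members higher and 2 lower in luminal cells.

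Amino acid transporters were split, with 8 of 25 members higher on the luminal and 13 on the basal side. All 4 Slc6 members were higher in basal cells, led by Slc6a8, the creatine transporter (137 ± 30.2 against 39.3 ± 9.86, SD, n = 15 each, log2 difference -1.79, SE 0.13), and Slc6a6 (434 to 864 against 80.7 to 245, log2 difference -1.77, SE 0.14), both without overlap. The 2 glutamate transporters of the Slc1 family lay on opposite sides. Slc1a3 averaged 24.8 in basal and 0.410 in luminal cells (log2 difference -4.15, SE 0.23), while Slc1a1 averaged 21.5 in luminal and 2.42 in basal cells (log2 difference 2.76, SE 0.29), and neither overlapped. Slc43a3, a purine nucleobase transporter placed here by its family number, was at 69.8 to 182 in basal and 0 to 7.94 in luminal libraries (log2 difference -5.08, SE 0.28).

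Both chains of the LAT1 exchanger were higher in basal cells, with log2 differences of -2.40 (SE 0.40) for Slc7a5, the light chain, and -1.10 (SE 0.15) for Slc3a2. The glutamine transporter Slc1a5 had -1.13 (SE 0.13) and Slc38a2 -0.82. The neutral amino acid transporters Slc38a1 (4.19, SE 0.37) and Slc1a4 (2.68) and the cationic transporter Slc7a2 (1.18, 674 against 262 normalised counts) were higher in luminal cells.

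Sodium-calcium exchangers also divided between the lineages. Slc8a1, the plasma membrane sodium-calcium exchanger (chr17:81680534-82045891, minus strand), was at 18.7 through 27.1 to 48.9 normalised counts in basal libraries and 0 to 1.26 in luminal ones, 10 of which were at 0 (log2 difference -4.57, SE 0.20). Slc24a3, a potassium-dependent sodium-calcium exchanger, was higher in luminal cells (44.0 ± 33.5 against 6.47 ± 5.76, SD, n = 15 each, log2 difference 2.73, SE 0.34). Of 5 calcium pumps tested, Atp2c2 (1.39), Atp2c1 (0.57) and Atp2b1 (0.38) were higher in luminal cells, and Atp2b4 (-2.69) and Atp2a2 (-1.07) in basal cells. Of the 5 ABC pumps of the same list 4 were higher in basal cells, between -0.66 (Abcg2) and -0.86 (Abcc5), and Abcc4 did not pass the test.

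Of the 5 cation-chloride cotransporters 3 were higher in luminal cells, among them Slc12a2 and Slc12a9 (0.80), and Slc12a4, the potassium-chloride cotransporter KCC1, was higher in basal cells (log2 difference -3.32, SE 0.27). Of 32 listed NKCC1 regulators and ion partners, 23 were tested, 14 were higher in luminal and 7 in basal cells. The kinases Wnk1 (0.49) and Stk39 (0.36) were among the higher, as were the potassium channels Kcnn4 (4.37), Kcnk5 (3.95) and Kcnk1 (1.08). So were the water channel Aqp5 (4.97), the chloride channel Ano1 (1.02), the ClC family member Clcn3 (2.44) and the sodium pump subunit Atp1b1 (2.50). The volume-regulated anion channel subunit Lrrc8c (-4.99) was among those higher in basal cells.

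Zinc transporters had 2 of 16 members higher on the luminal side and 5 on the basal side. The importer Slc39a10 (146 ± 47.2 against 54.2 ± 14.8, log2 difference -1.37, SE 0.13) and the exporter Slc30a1 (112 ± 23.0 against 64.6 ± 11.8, log2 difference -0.84, SE 0.11; SD, n = 15 each) were higher in basal cells without overlap. The metallothioneins Mt1 (-2.04) and Mt2 (-2.67), which bind zinc, were also higher in basal cells without overlap. Slc39a11 was higher in luminal cells (135 ± 40.9 against 29.2 ± 13.4, SD, n = 15 each, log2 difference 2.31, SE 0.16). Among the iron, copper, manganese and magnesium carriers 3 of 7 members were higher in luminal cells and none passed the test in the other direction, with the copper importer Slc31a1 at 1.73 (SE 0.14), Slc41a2, a magnesium transporter, at 1.73 and the iron exporter Slc40a1 (ferroportin) at 1.52.

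The Slc35 nucleotide sugar transporters and Slc33a1 of the secretory pathway had 12 of 22 members higher and 4 lower in luminal cells, with a median log2 difference of 0.61. The largest were Slc35f3 (3.04, SE 0.24), Slc35d2 (1.71), Slc35e3 (-1.52) and Slc35d1 (-1.11, SE 0.13, without overlap). The UDP-galactose transporter Slc35a2, which supplies the Golgi, was not called, at 18.5 and 17.2 normalised counts (log2 difference 0.02). Fatty acid and choline carriers had 5 of 7 higher in luminal cells, led by Slc44a4 (3.66, SE 0.36) and Slc44a3 (2.23, SE 0.26), and 2 higher in basal cells, led by the fatty acid transport protein Slc27a3 (-3.37, SE 0.32).

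The remaining groups were smaller. Organic ion transporters had 7 of 13 higher and 1 lower in luminal cells, with Slc22a18 at 3.55 (SE 0.26) but at 2.87 normalised counts or less in every basal library. Phosphate and sugar phosphate carriers had 2 of 5 higher (Slc37a1 2.42, SE 0.17) and 3 lower (the phosphate importer Slc20a1 -1.41). Nucleoside transporters had 2 of 3 higher (Slc28a3 3.46, SE 0.37) and 1 lower, vitamin and heme carriers 2 of 7 higher (Slc46a3 3.00) and 3 lower (the folate carrier Slc19a1 -1.11), sodium-proton and bicarbonate exchangers none of 9 higher and 3 lower, monocarboxylate carriers none of 3 higher and 1 lower, and Slc66a2, a group of its own, was higher at 0.40. Many of these genes were at or below 3 reads in the lower lineage, where a difference on this scale depends on the added count of 1. The same holds for Slc5a9, Slc2a13, Slc8a1, Slc1a3 and Slc44a4 above, below 3 reads in 14 or all 15 libraries of the lower lineage. Slc2a4 was below 3 reads in 8 luminal libraries and Slc5a1 in 10 basal ones.

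Of 16 transporters with known roles in lactation, 13 were tested, 4 were higher in luminal cells (Slc12a2, Slc5a5, Slc28a3, Slc40a1) and 5 in basal cells (Slc7a5, Slc39a8 at -1.94, Slc20a1, Slc1a5, Slc3a2). Over all genes 28.7% were called higher and 27% lower in luminal cells. The zinc transporter Slc30a4 (-0.11) and the metal importer Slc11a2 (0.20), with Slc2a1 and Slc35a2, did not pass the test. The other 3 of the list were not analysed here.

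**Figure D4:**
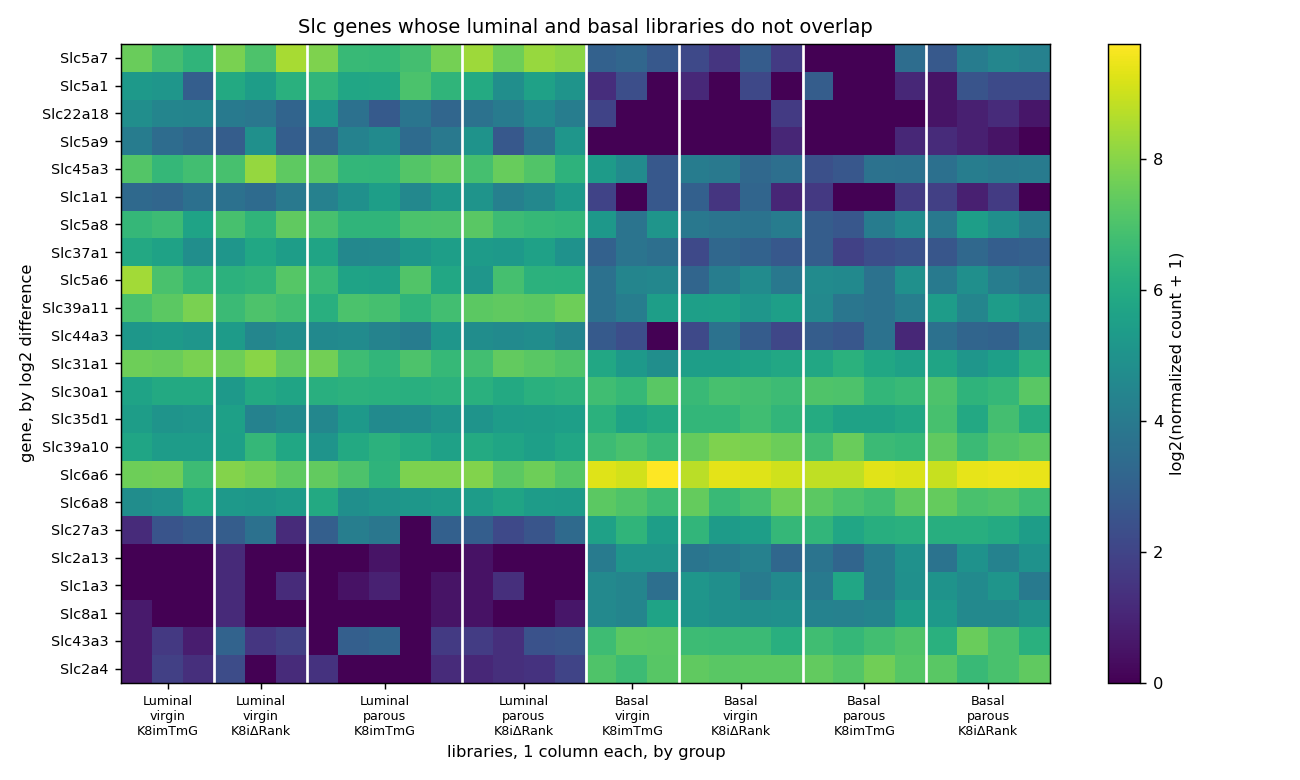
Colour gives log2(normalised count + 1) of the 23 Slc members whose lineages do not overlap (rows, ordered by log2 difference) in the 30 libraries (columns, by lineage, stage and genotype). Basal-high members such as Slc2a4 (96.4 to 199 normalised counts) and luminal-high members such as Slc5a7 (83.2 to 353) separate the lineages.

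The genotype comparison in luminal cells called no member at either stage. In virgin luminal cells 0 of 126 members passed limma, where 0.984% of all genes were called. DESeq2 on the recovered reads called 6 members and edgeR 1. An unadjusted p below 0.05 (limma) was found for 26 of the members and for 2226 of all 10066 genes tested. The nearest were Slc18b1, a vesicular polyamine transporter (1.56, adjusted p = 0.0555), Slc27a4, a fatty acid transport protein (-1.78, adjusted p = 0.0634), and Slc5a5. Leaving out mouse 531 gave 3 calls. In parous luminal cells 0 of 126 passed, DESeq2 called 9 and edgeR 0, and 0.0991% of all genes were called. An unadjusted p below 0.05 (limma) was found there for 33 members and for 2009 of all 10090 genes tested. The lowest adjusted p was 0.0885 for Slc27a1 (1.02).

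In virgin basal cells 8 of 129 members were called between K8iΔRank and K8imTmG, 5 higher and 3 lower, where 8.99% of all genes were called, 4.27% higher and 4.72% lower. Slc35b1, an ATP/ADP exchanger of the endoplasmic reticulum, was at 181, 138, 128 and 144 normalised counts in K8iΔRank and 56.0, 74.4 and 43.5 in K8imTmG libraries (log2 difference 1.36, SE 0.25, adjusted p = 0.0148, limma). Slc48a1, a heme transporter, was at 192, 95.5, 110 and 160 against 50.3, 62.0 and 43.5 (log2 difference 1.37, SE 0.29, adjusted p = 0.0226). Both genes were higher in every K8iΔRank library.

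Also among the members higher in K8iΔRank were Slc39a10 (0.91, adjusted p = 0.0297) and Slc4a2, an anion exchanger (1.36, adjusted p = 0.0475). Lower were the abundant Slc38a2, at 754, 518, 491 and 667 against 1688, 1091 and 935 (-1.0, SE 0.26, adjusted p = 0.0413), Slc35f5 (-1.14, adjusted p = 0.0489) and Slc7a2 (-1.04, adjusted p = 0.0490). None of the 8 overlapped between the groups, where 28.2% of all genes did not overlap. Leaving out a library gave 1 to 5 calls, with 1 without mouse 531 or 825, 2 without mouse 822, 3 without mouse 538 or 568 and 5 without mouse 820 or 821. Of the markers of other cells, 1 of 3 immune markers tested was lower in K8iΔRank (Lyz2 at -1.70, adjusted p = 0.0479, limma, list sum 39.7 to 105 against 54.3 to 136) and 1 of 5 hormone-sensing markers (Esr1 at -1.27, adjusted p = 0.0434, list sum 156 to 373 against 147 to 475), while none of 3 endothelial markers was called (list sum 166 to 624 against 130 to 267). Their part in the result was not tested. Genotype and the Clec2d split cannot be told apart in these cells. In a fit with the split as a term, which the data inform only through the 9 libraries of 2 mixed groups and which was chosen after the data were seen, 18.9% of all genes and 19 members were called for the split. All 8 members moved in the direction that the split carries, and 4 were called for it.

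Between parous and virgin luminal cells, members were called in both genotypes. In K8imTmG luminal cells 6 of 131 members were called, 5 higher in parous mice and 1 (Slc12a2) lower, where 2.2% of all genes were called, 1.06% higher and 1.14% lower. Slc39a14, a zinc, iron and manganese importer, was at 48.7, 56.8, 71.0, 44.7 and 58.4 normalised counts in parous and 30.8, 12.6 and 12.5 in virgin libraries (log2 difference 1.64, SE 0.33, adjusted p = 0.0397, limma). Slc39a8, its close relative, was at 6.72, 12.0, 7.06, 6.39 and 14.7 against 1.28, 0.524 and 0.736 (log2 difference 2.44, SE 0.52, adjusted p = 0.0469), where the virgin libraries held at most 2 reads each. Both importers were higher in every parous library, where 16.9% of all genes did not overlap between the stages. Slc39a8 passed the filter on low values only through its parous libraries at 12.0 and 14.7. Its call and lack of overlap therefore cannot be read as support.

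The others were Slc26a2, the sulfate transporter (0.91, adjusted p = 0.0447), Slc43a2, a neutral amino acid transporter (1.30, adjusted p = 0.0453), and Slc1a1 (1.49, adjusted p = 0.0491). The count was 24 among low-Clec2d libraries and ranged from 0 to 17 over libraries left out, with 17 without mouse 494, 1 without mouse 531, 534 or 557 and 0 without mouse 532, 533, 538 or 558. The alveolar markers moved with parity here, from 263 to 697 in virgin to 4647 to 7597 in parous libraries, and the hormone-sensing markers from 8462 to 10333 to 609 to 5890. Fibroblast markers summed to 245 to 957 in virgin and 98.4 to 321 in parous libraries. Their part in these results was not tested.

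In K8iΔRank luminal cells 21 of 125 members were called, 14 higher and 7 lower in parous mice, where 16% of all genes were called, 8.25% higher and 7.78% lower. Slc27a4 (chr2:29692598-29710004, plus strand) was at 59.7, 75.7, 50.2 and 64.1 normalised counts in parous and 25.2, 23.1 and 14.5 in virgin libraries (log2 difference 1.55, SE 0.26, adjusted p = 0.00458, limma). Slc24a3 was at 63.2, 118, 97.5 and 46.7 against 21.5, 13.5 and 29.1 (1.86, SE 0.35, adjusted p = 0.00813). Slc18b1 was at 8.75, 10.8, 13.4 and 12.4 against 41.6, 36.5 and 30.4 (-1.60, SE 0.28, adjusted p = 0.00631). None of these 3 genes overlapped between virgin and parous libraries, where 29.7% of all genes did not overlap.

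Amino acid carriers were on both sides of this comparison, and both fatty acid transport proteins called were on the higher side. Higher in parous mice were Slc1a4 (1.63, adjusted p = 0.00598), the fatty acid transport protein Slc27a1 (1.59, adjusted p = 0.00787), the folate transporter Slc46a1 (1.47, adjusted p = 0.0122), Slc48a1 (1.60, adjusted p = 0.0156) and the lactate transporter Slc16a1 (1.78, adjusted p = 0.0309). Also higher, between 0.77 (Slc66a2) and 1.38 (Slc41a2), were Slc37a3, Slc22a23, Slc29a3 and Slc1a1. Lower were the glucose transporter Slc2a3 (-2.91, adjusted p = 0.0111), Slc44a4 (-2.50, adjusted p = 0.0220), Slc7a2 (-1.31, adjusted p = 0.0122, 444 ± 159 against 1062 ± 186, SD, n = 4 and 3), Slc35f5 (-0.85), Slc35f3 (-0.84) and Slc35a3 (-0.62).

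Stage and the Clec2d split cannot be told apart in these K8iΔRank luminal cells. Markers of other cells moved with stage here. Fibroblast markers summed to 713 to 852 in virgin and 173 to 416 in parous libraries (1 of 4 tested called lower, Dcn at -1.89, adjusted p = 0.00409, limma), basal markers to 71.1 to 208 and 36.4 to 60.9 (1 of 3, Acta2 at -1.93, adjusted p = 0.0173), hormone-sensing markers to 5507 to 9784 and 2669 to 6421 (3 of 6 called lower, Areg, Esr1 and Foxa1), and alveolar markers to 1482 to 2551 and 1666 to 3472 (2 of 4 called higher, Csn1s1 and Csn2). Their part in the result was not tested. Of the 21 members 19 moved in the direction that the split carries in the fit described above, and 9 were called for it. The count was 11 without mouse 821 and 13 without mouse 830, and 3 in a fit of all 8 groups.

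In basal cells no member was called for parity. Limma called 0 of 123 in K8imTmG mice (DESeq2 1 and edgeR 1) and 0 of 128 in K8iΔRank mice (DESeq2 0 and edgeR 0). In either, 0% of all genes were called. In K8imTmG mice 12 members and 969 of 10538 genes had an unadjusted p below 0.05 (limma). In K8iΔRank mice 16 members and 1036 of 10525 genes did.

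The parity difference itself differed between the genotypes in luminal cells for 18 of 128 members, 12 more positive and 6 more negative in K8iΔRank mice, where 12.9% of all genes were called, 7.17% and 5.75% in these directions. The largest was Slc35g1 (-3.48, SE 0.83, adjusted p = 0.0190, limma), at 21.1, 21.0 and 3.68 in virgin and 58.8, 46.4, 46.8, 153 and 45.0 in parous K8imTmG libraries, and at 40.4, 32.7 and 39.6 in virgin and 36.5, 5.90, 20.6 and 11.9 in parous K8iΔRank libraries. In controls every parous library was above every virgin library, and in K8iΔRank mice the stages overlapped. Slc24a3 (3.12, SE 0.83, adjusted p = 0.0281) was at 25.6, 41.9 and 81.7 in virgin and 6.72, 12.4, 9.71, 47.9 and 44.6 in parous K8imTmG libraries, beside the rise with parity in K8iΔRank mice given above.

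Slc7a5 (-2.63, SE 0.74, adjusted p = 0.0332) was at 7.05, 8.39 and 2.21 in virgin and 33.6, 22.4, 10.6, 41.5 and 16 in parous K8imTmG libraries. In K8iΔRank mice it was at 12.6, 9.61 and 13.2 in virgin and 12.2, 3.44, 3.90 and 10.9 in parous libraries. Control parous libraries were all above control virgin libraries, whereas the K8iΔRank stages overlapped.

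The other members with a more negative parity difference in K8iΔRank mice were Slc5a1 (-2.33, adjusted p = 0.0342), Slc18b1 (-2.20, adjusted p = 0.0235), Slc39a14 (-1.45, adjusted p = 0.0436) and Slc1a5 (-1.25, adjusted p = 0.0410). More positive were the fatty acid carriers Slc27a4 (2.52, SE 0.51, adjusted p = 0.0121) and Slc27a1 (1.72, adjusted p = 0.0165), Slc48a1 (2.10, adjusted p = 0.0162), Slc37a3 (1.59, adjusted p = 0.0137), the sugar transporter Slc50a1 (1.58, adjusted p = 0.0137), Slc66a2 (1.43, adjusted p = 0.0165), Slc44a2 (1.75), Slc29a3 (1.69), Slc7a4 (1.67), Slc4a2 (1.31) and Slc39a11 (1.30). The count was 5 without mouse 538, 7 without mouse 821, 8 without mouse 794 and 11 without mouse 830. The same test called 3 of 6 luminal markers more positive (Krt19 1.60, Krt18 1.33, Cldn4 1.30), 1 of 3 basal markers tested more negative (Acta2 -2.15) and 1 of 4 alveolar markers more negative (Csn3 at -2.70, adjusted p = 0.00765, limma), and their part in the result was not tested. Of the 18 members 16 moved in the direction that the Clec2d split carries, and 3 were called for it.

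**Figure D5:**
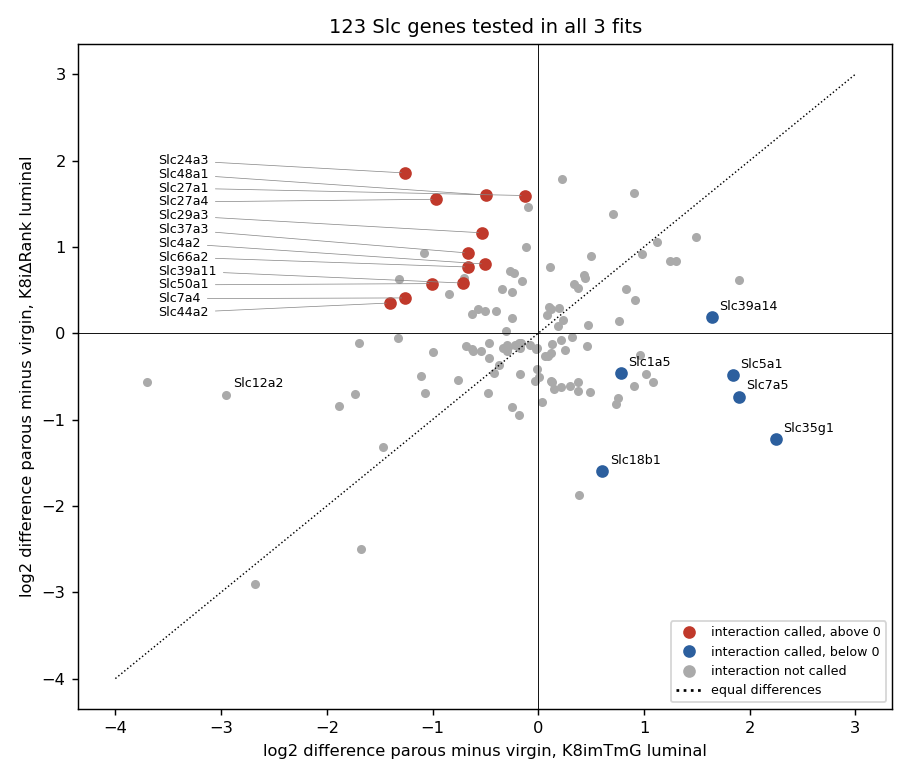
Log2 difference between parous and virgin luminal cells in K8imTmG (x axis) and K8iΔRank mice (y axis) for the 123 Slc members tested in all 3 fits, coloured by the call on the difference between them. Of the called members, 12 lie above and 6 below the dotted line of equal differences.

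The corresponding test in basal cells called 0 of 128 members (limma, DESeq2 0 and edgeR 0), where 0% of all genes were called. In this test 18 members and 1082 of 10607 genes had an unadjusted p below 0.05 (limma). The difference of the parity effect between luminal and basal cells of K8imTmG mice called 0 of 139 members (limma, DESeq2 1 and edgeR 0). Of all genes 0.127% were called. For this difference 26 members and 1287 of 10986 genes had an unadjusted p below 0.05 (limma).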

How the data were processed

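RNA of GFP-positive (recombined) luminal cells and of basal cells, sorted by CD24 and CD49f gates, was sequenced as QuantSeq 3′ libraries with molecular identifiers (UMIs). The authors trimmed the reads, aligned them with Bowtie2 to GRCm39 and then deduplicated with UMI-tools. They deposited counts per gene divided by DESeq2 size factors, a signal that is not a raw count. Tool versions other than FastQC 0.11.9 are not given in the sources used here. Every deposited value was a whole multiple of what 1 read is worth in its library (100% within 0.01), which gave the recovered reads. Differences were tested with limma 3.58.1 (R 4.3.3, trend) on log2(normalised count + 1) with a threshold of 0.05 after Benjamini-Hochberg adjustment over all genes tested, which were those above 10 in 25% or more of the compared libraries. Pairs of groups were fitted alone, the lineages over all 8 groups and interactions over 4. Alternatives were count models of the recovered reads in edgeR 4.0.16 and in DESeq2 1.42.0, other settings and libraries left out. The scripts were tested on simulated data. The lowest chi-square per degree of freedom over 43 replicate pairs was 2.67, so no library was counted as a duplicate.

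Members and lists were chosen with earlier results of these data known. Members named were Slc12a2, the 10 largest lineage differences without overlap in each direction, up to 5 called members per direction in each other comparison, the most abundant and most lineage-different member of families of 4 or more, and the lactation list. Any other member named was chosen after its values were seen. A few items that this rule or a list would name are not reported here, though they remain in the counts. Coordinates are from GENCODE vM39 on GRCm39. Luminal and basal libraries of 13 mice share the animal, which was tried as a block. Different mice were compared in all other tests.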

Additional observations from a re-analysis of the deposited data

Results flagged for a closer look

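Within groups of 4 to 10 libraries, 13 of 130 groups of 26 members held a library apart from the rest. The chance rate of about 1 in 20 does not hold for values of 0 or a few reads. The count of 13 therefore cannot be read as an excess. In basal parous K8imTmG cells the library of mouse 558 stood apart in Slc5a7 (10.2 normalised counts, the others at 0), Slc5a5 (3.41), Slc5a9 (1.14) and Slc8a1 (42.1), the first 3 of which are luminal-high and the last basal-high. In basal virgin K8iΔRank cells the library of mouse 825 stood apart in Slc43a3 (69.8), Slc22a18 (2.15) and Slc5a9 (1.07). Among luminal parous K8imTmG libraries this held for Slc35g1 in mouse 557 (153), Slc22a18 in mouse 494 (33.6), Slc8a1 in mouse 558 (0.433) and Slc2a13 in mouse 534 (0.441). In luminal parous K8iΔRank cells it held for Slc2a13 in mouse 787 (0.381), and in basal parous K8iΔRank cells for Slc7a5 in mouse 830 (200). The values under 5 normalised counts rest on few reads, and the basal library of mouse 558 was the deepest of its group (1365008 reads).

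The parity difference differed between the genotypes in luminal cells by a tested interaction for the named members Slc27a4 (2.52), Slc48a1 (2.10), Slc37a3 (1.59), Slc50a1 (1.58), Slc66a2 (1.43), Slc35g1 (-3.48), Slc7a5 (-2.63), Slc5a1 (-2.33), Slc18b1 (-2.20) and Slc1a5 (-1.25), in log2 units.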

How the results depend on the processing

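Lineage calls changed little. The count of 97 was 87 with the mouse as a replicate block (pairing the 13 mice that gave both lineages), of which 86 were among the 97, 94 with the Clec2d split as a covariate, 99 by edgeR and 95 to 99 over libraries left out. Slc12a2 was 4.01 with the block, 4.39 with the covariate and 4.04 to 4.29 over libraries left out. Over libraries left out, Slc5a9 was tested in 22 of 30 fits, since it failed the filter on low values in the rest. Among named results of the other comparisons, 11 of 44 kept direction and call under every alternative in which they were tested. Besides Slc12a2, this held for 42 of 44 named lineage results, among them all 37 that were called. Of the 2 exceptions, neither called, Slc22a17 (0.23) passed the threshold without the basal library of mouse 538 (0.41, adjusted p = 0.0386, limma), and Slc35a2 (0.02) turned sign by edgeR (-0.00798) and ranged from -0.0894 to 0.129 over libraries left out.

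A single fit of all 8 groups gave 2 calls (virgin luminal genotype), 26 (virgin basal), 4 (parous basal), 13 (K8imTmG luminal parity), 3 (K8iΔRank luminal parity) and 1 (K8imTmG basal parity). DESeq2 gave 6 (virgin luminal), 9 (parous luminal), 3 (parous basal), 17 (K8imTmG luminal parity), 1 (K8imTmG basal parity) and 1 (lineage by stage), and edgeR 1 (virgin luminal) and 1 (K8imTmG basal parity). Without a filter there were 5 (virgin basal) and 2 (K8imTmG luminal parity). Restricting to high-Clec2d libraries gave 0 (parous basal) and to low-Clec2d libraries 24 (K8imTmG luminal parity). The cause was not tested.

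Over libraries left out, counts ranged from 0 to 3 (virgin luminal, 3 without mouse 531), 1 to 5 (virgin basal), 0 to 7 (parous basal, 7 without mouse 794 and 3 without mouse 558), 0 to 17 (K8imTmG luminal parity), 11 to 21 (K8iΔRank luminal parity), 0 to 1 (K8imTmG basal parity, 1 without mouse 568) and 5 to 20 (luminal interaction), and were 0 in the parous luminal genotype, K8iΔRank basal parity, basal interaction and lineage by stage comparisons.

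Slc12a2 turned sign where it was not called, in virgin basal cells between genotypes without mouse 568 (-0.507), 820 (-0.268) or 825 (-0.091), with a range up to 0.474 over libraries left out, in K8iΔRank luminal parity under quantile normalisation (0.0548) and in the lineage by stage test without the basal library of mouse 568 (0.0661, the lowest being -0.915). Depth limits members below 3 reads, a floor of 1.14 to 16.3 normalised counts by library.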
